A study of Rattus norvegicus with 59 samples.

Results

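Red blood cell and blood vessel transcripts were followed through 5 brain regions of 2 inbred rat lines. The genes are 6: Hbb-b1, a beta-globin; Alas2, the red cell form of the enzyme that starts heme synthesis; Pecam1, an adhesion molecule of endothelial junctions; Flt1 and Kdr, receptors for vascular endothelial growth factor (VEGF); and Vwf, the von Willebrand factor that endothelium and platelets make. Every probe set annotated with 1 symbol from this list was taken, whatever its values. That gave 7 probe sets, 1 for each gene and 2 for Vwf, out of 8740 probe sets on the array, of which 7006 carry 1 symbol and stand for 4736 genes. The tests left out the dimmest 40% of probe sets, and 4 of the 7 passed that filter (Hbb-b1, Alas2, Pecam1 and Flt1). Kdr and both Vwf probe sets lay below it, so their tests come from a fit of all 8740 probe sets with no filter.

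Mature red cells of mammals have lost their nucleus, and their youngest forms still carry globin and heme enzyme messages that were made in the marrow. Endothelial cells line every vessel of the brain, where they form the blood-brain barrier, and Pecam1, the VEGF receptors and von Willebrand factor are among the markers by which they are recognised. Tissue taken without flushing the vessels holds blood along with the vessel wall, and the labels' protocols name decapitation and rapid dissection on a plate in a cold box.

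The study compared lines selected and then inbred for high or low alcohol drinking, called alcohol-preferring (iP, line iP5C) and non-preferring (iNP, line iNP1). Adult male rats of each line, 6 for each, gave nucleus accumbens, amygdala, cortex (frontal cortex in the series' design), hippocampus and striatum, and no drug or alcohol treatment is named for any of them. RNA of each rat was labelled and hybridised on its own, so each of the 59 arrays is 1 region of 1 rat, 29 from iP and 30 from iNP. The cortex of iP rat 6 was not analysed here, which leaves 5 iP cortex arrays and makes that rat's mean an average over the other regions. Titles and genotype labels name the line of each array, whereas the source label gives iNP for all arrays and was not used. Each line is 1 inbred strain, so anything fixed by chance in that strain cannot be told apart from the trait it was selected for.

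The deposited signals had been brought to a common scale, with median signals of 251 to 391 per array. Markers of medium spiny neurons were higher in striatum and in accumbens for 8 of 8 genes, and hippocampus was higher for its own 4 of 4 markers. Cortical markers were less clear, with 1 of 3 higher and 2 lower in cortex, and amygdala markers likewise, with 1 of 4 higher and 2 lower in amygdala. Across all probe sets, 5 of 59 arrays correlated best with the arrays of another region: cortex of iP rat 5, amygdala of iP rat 1, amygdala of iNP rats 7 and 8, and accumbens of iP rat 4. The first of these arrays also had a 3′ to 5′ log2 signal ratio for Gapdh of 6.14, against -0.15 to 0.44 on the other 58 arrays. The amygdala of iP rat 1 correlated with the mean profile of cortex (r = 0.35) and not with that of amygdala (r = -0.21). Results that rest on these arrays are given with and without them.

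Hbb-b1 was bright in every region, and its signal was highest in accumbens and lowest in striatum and hippocampus. In accumbens it ran from 9504 through a median of 13071 to 16757 in iP rats and from 13640 through 15323 to 18903 in iNP rats. In striatum the iP rats had 6522, 7214 and 7776 as lowest, median and highest, and the iNP rats had 6898, 9031 and 14982. In hippocampus the values were 5446, 6558 and 11347 in iP and 7512, 8904 and 11786 in iNP. The accumbens of every iNP rat was therefore brighter than the hippocampus of any rat of either line. In amygdala the lowest, median and highest signals were 7593, 9337 and 12605 in iP rats and 9797, 13663 and 18906 in iNP rats. The 5 iP cortex arrays read 6757, 6705, 7398, 8065 and 10338 for rats 1 to 5, and the iNP cortex ran from 8629 through 9523 to 14952. In each region the iP median lay below the iNP median while the ranges overlapped. In hippocampus and in accumbens 1 iNP rat stood above every iP rat, and in amygdala 4 did. The probe set belongs to a type that can match several members of a gene family, so its signal may include other beta-globins and is uncertain as a measure of Hbb-b1 alone.

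Alas2, a gene on another chromosome than the beta-globins, ranked the regions nearly as Hbb-b1 did. In accumbens its lowest, median and highest signals were 972, 1334 and 1772 in iP rats and 1564, 1690 and 1984 in iNP rats. In hippocampus they were 577, 774 and 1176 in iP and 737, 920 and 1387 in iNP. The brightest hippocampus array, 1387 in iNP, lay above the iP accumbens median of 1334, and no hippocampus reached an iNP accumbens. Striatum gave 668, 824 and 953 in iP and 848, 1061 and 1567 in iNP, and amygdala gave 939, 1024 and 1526 in iP and 1180, 1376 and 2061 in iNP. The 5 iP cortex arrays read 639, 721, 1005, 1055 and 902 for rats 1 to 5, and the iNP cortex ran from 848 through 1034 to 1793. Again every iP median was below its iNP median, with overlap in all 5 regions.

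**Figure D1:**
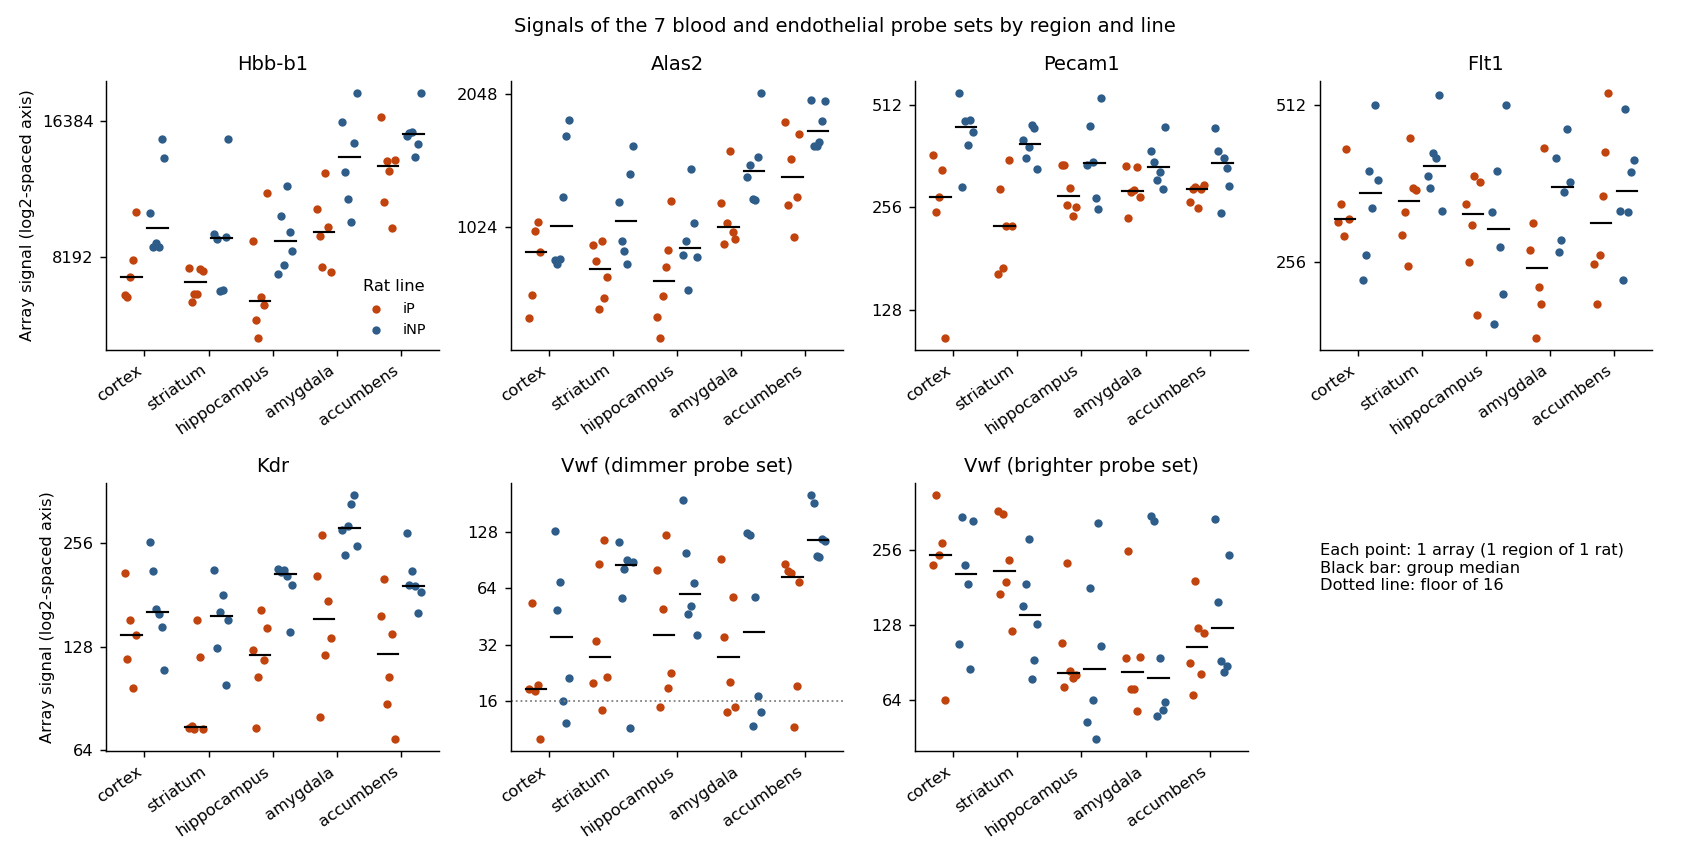
Signal of each of the 7 probe sets (log2-spaced axis, authors' scaled intensity) by region, 1 point per array, iP and iNP side by side, with a black bar at the median of each group and a dotted line at the floor of 16. Hbb-b1 and Alas2 sit highest in accumbens, whereas most Pecam1 and Flt1 arrays keep to about the same range in all regions.

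The stretch of DNA before each start site is printed for these red cell genes because they are the pair that moved together. The windows are the 250 bases before the start that RefSeq annotates on the rat build GRCr8, at chr1:167643521-167643770 on the minus strand for Hbb-b1 and chrX:22895200-22895449 on the plus strand for Alas2. The sequences come from RefSeq's table, which held 4 of the 6 genes. They are written 5′ to 3′, and capitals mark the letters searched for on both strands: AGATAA, a form of the site that GATA factors bind, CACCC, bound by Kruppel-like factors, CCAAT, and TATAAA.
Hbb-b1: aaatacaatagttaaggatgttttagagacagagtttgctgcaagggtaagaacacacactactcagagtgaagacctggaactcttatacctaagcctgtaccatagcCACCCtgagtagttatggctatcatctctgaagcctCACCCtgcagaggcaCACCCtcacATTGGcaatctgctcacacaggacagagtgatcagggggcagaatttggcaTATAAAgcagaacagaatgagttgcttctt
Alas2: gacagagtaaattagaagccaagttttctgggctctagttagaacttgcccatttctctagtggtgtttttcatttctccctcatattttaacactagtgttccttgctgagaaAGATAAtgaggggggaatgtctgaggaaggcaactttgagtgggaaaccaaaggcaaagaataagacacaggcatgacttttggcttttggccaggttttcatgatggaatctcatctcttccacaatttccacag
The Hbb-b1 window held CACCC 3 times, with first bases 141, 105 and 90 bases before the start, CCAAT once as its reverse ATTGG at 81, and TATAAA once at 30. The Alas2 window held AGATAA once, at 136 bases before the start, and none of the other 3. Of 33469 windows of the same length, 10.3% held AGATAA or its reverse TTATCT, 49.2% held CACCC or GGGTG, 34.0% held CCAAT or ATTGG, and 12.9% held TATAAA or TTTATA. The windows thus shared none of the 4 letter strings, and each string is common enough that its presence is a description only. No measurement here places the start that these rats used.

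Accumbens was higher than the mean of the other 4 regions for both red cell genes. With each rat as a block, Hbb-b1 differed by 0.62 ± 0.08 (log2 difference ± SE, 1.54-fold, limma, adjusted p = 4.22e-08 with Benjamini-Hochberg adjustment) and Alas2 by 0.60 ± 0.09 (1.52-fold, limma adjusted p = 5.01e-07). These calls stood among 20.9% of the 5244 probe sets tested that were called in accumbens in either direction. In pairs from 1 rat, accumbens was above striatum for Hbb-b1 in 12 of 12 rats (0.79 ± 0.27 on the log2 scale, mean ± SD, 1.73-fold) and above hippocampus for Alas2 in 12 of 12 (0.81 ± 0.41, 1.75-fold). Without the 5 arrays nearest another region the accumbens differences were 0.65 and 0.68.

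The hippocampus was lower for both genes, by a log2 difference of -0.36 ± 0.08 for Hbb-b1 (limma adjusted p = 0.000614) and -0.41 ± 0.09 for Alas2 (limma adjusted p = 0.000262), where 23.3% of probe sets were called. Striatum was lower by -0.37 ± 0.08 for Hbb-b1 (limma adjusted p = 0.000933) and -0.26 ± 0.09 for Alas2 (limma adjusted p = 0.0392), against 13.9% of probe sets called. The Hbb-b1 calls in hippocampus and striatum and the Alas2 call in hippocampus were kept under all 22 alternatives. The Alas2 call in striatum was lost under 8 of 22, with adjusted p from 0.0108 to 0.119, among them leaving out iP rat 3 (0.119), 5 (0.0853) or 6 (0.0858) or iNP rat 8 (0.061), 9 (0.0628) or 10 (0.104). Without the rat as a block that adjusted p was 0.0813.

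Amygdala was slightly higher, by 0.24 ± 0.08 for Hbb-b1 (limma adjusted p = 0.0249) and 0.23 ± 0.09 for Alas2 (limma adjusted p = 0.0444), beside 26.1% of probe sets called. Both calls lay close to the threshold: Hbb-b1 lost it under 3 of 22 alternatives and Alas2 under 13 of 22. Without the 5 arrays nearest another region the amygdala differences were 0.21 (adjusted p = 0.0684) and 0.18 (adjusted p = 0.152), neither called. Leaving out iP rat 4 gave adjusted p = 0.0873 for Hbb-b1 and 0.121 for Alas2, and leaving out iNP rat 7 gave 0.0796 and 0.0568, out of ranges of 0.00409 to 0.0873 and 0.0217 to 0.152. The Alas2 call was also lost without iP rat 1 (0.06), 2 (0.0664) or 3 (0.0625) or iNP rat 8 (0.0921), 9 (0.0818) or 12 (0.077), with no filter (0.0615), with array weights (0.0925) and without the block (0.0743). Without the 2 arrays farthest apart, cortex of iP rat 5 and amygdala of iP rat 1, Hbb-b1 in amygdala was 0.26 (adjusted p = 0.0131) and Alas2 0.22 (0.0598). Cortex was not called for either gene, with -0.14 ± 0.09 (limma adjusted p = 0.291) and -0.16 ± 0.09 (0.245), where 17% of probe sets were.

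In the order of mean levels, Hbb-b1 ranked accumbens first, then amygdala, cortex, hippocampus and striatum, and only the step from amygdala to cortex exceeded its spread over rats (0.35 ± 0.28, higher in 9 of 11). Hippocampus and striatum could not be ordered, with a difference of 0.01 ± 0.42 and 6 of 12 rats on each side. Alas2 had the same first 3 regions and then striatum and hippocampus, and again only amygdala over cortex exceeded the spread (0.35 ± 0.33, 9 of 11). Accumbens over amygdala was 0.31 ± 0.34 (8 of 12) for Hbb-b1 and 0.30 ± 0.37 (10 of 12) for Alas2.

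Markers of the tissue that wraps the brain changed between regions along with the red cell genes. Of 16 meningeal and fibroblast genes tested, 15 were higher in accumbens (median difference 0.80, led by the retinoid carrier Crabp2 at 1.61) and 13 in amygdala (median 0.62, led by Aldh1a2 at 1.84). Of the same 16, 14 were lower in striatum (median -0.73, led by Slc22a6 at -1.88) and 14 in hippocampus (median -0.73, led by Aldh1a2 at -2.40). Of all probe sets, 20.9% were called in accumbens, 26.1% in amygdala, 13.9% in striatum and 23.3% in hippocampus, in either direction. The summed signal of the 16 genes ran from 39884 to 58683 in accumbens, 29512 to 54747 in amygdala, 18259 to 45687 in cortex, 10249 to 27135 in striatum and 10169 to 21046 in hippocampus. Accumbens and amygdala thus stood at the top for this list and for the red cell genes alike, and the accumbens and hippocampus sums of the list did not overlap. None of the 16 was at 0 on any array, and their part in the red cell differences was not tested.

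Between the lines, Hbb-b1, Pecam1 and Kdr were lower in iP rats, while Alas2 lay close to the threshold and Flt1 and Vwf were not called. The comparison took 1 mean per rat over its regions, after the level of each region was removed. The rat and not the array was thus the replicate. Where rat means of the lines do not overlap, the share of all probe sets that do the same is not given here. For all members a lower signal could come from fewer cells of a type or from less RNA per cell, which bulk tissue cannot tell apart.

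Hbb-b1 averaged over regions was 7618, 8788 and 9612.4 in the lowest, median and highest iP rat and 9612.6, 11048 and 14384 in the iNP rats. The groups did not overlap, but the brightest iP rat and the dimmest iNP rat were nearly equal. The difference was -0.38 ± 0.09 (log2, iP minus iNP, ± SE, 1.30-fold lower, limma adjusted p = 0.0406), with log2 means ± SD of 13.08 ± 0.14 and 13.46 ± 0.21 (n = 6 rats each, limma). This call was fragile: it was lost under 10 of 23 alternatives, and its adjusted p ranged from 0.000664 to 0.106. Leaving out any of iP rats 2 (0.104), 3 (0.0983), 4 (0.0744) and 5 (0.0643) or iNP rats 7 (0.0788), 8 (0.0666), 11 (0.106) and 12 (0.0637, at -0.31) ended it. It was also lost with no filter on dim probe sets (0.0775) and with no intensity trend (0.0646). Without the 2 arrays that stood farthest apart, cortex of iP rat 5 and amygdala of iP rat 1, it was -0.40 with adjusted p = 0.0236, and without the 5 arrays nearest another region -0.38 with 0.0342.

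Alas2 averaged 826, 948 and 1078 in the iP rats and 1015, 1202 and 1587 in the iNP rats, and the groups overlapped. Its difference was the same size, -0.38 ± 0.10 (limma adjusted p = 0.072), and did not pass the threshold. It passed under 5 of 23 alternatives, among them leaving out iNP rat 9 (0.0291), leaving out the 2 arrays that stood farthest apart (0.0467), and keeping all arrays in 1 fit with the rat as a random block (0.00199). The adjusted p ranged from 0.00199 to 0.181.

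Pecam1 was lower in iP under every alternative run. Its rat means were 245, 270 and 283 in iP and 342, 357 and 417 in iNP, so every iP rat was below every iNP rat. The difference was -0.47 ± 0.07 (1.38-fold lower in iP, limma adjusted p = 0.00157), with log2 means ± SD of 8.06 ± 0.09 and 8.53 ± 0.12 (n = 6 rats each, limma). All 22 alternatives kept it, with adjusted p from 0.000488 to 0.00627. Without the 2 arrays farthest apart it was -0.42, and the same without the 5. Hbb-b1 and Pecam1 were 2 of the 4 members past the filter that were called lower in iP, where 1.45% of the 5244 probe sets tested were.

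Kdr, the main signalling receptor for VEGF on endothelium, was dimmer than the filter allowed and had the largest called line difference of the members. Its rat means were 99.9, 124 and 145 in iP and 163, 198 and 247 in iNP, again with no overlap. In the fit of all probe sets the difference was -0.70 ± 0.13 (1.62-fold lower in iP, limma adjusted p = 0.0115), with log2 means ± SD of 6.91 ± 0.22 and 7.61 ± 0.21 (n = 6 rats each, limma). All 21 alternatives kept the call, with adjusted p from 3.04e-05 to 0.0332. In that fit 1.06% of 8740 probe sets were called lower, and of the 7 member probe sets Pecam1 and Kdr were.

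Flt1, the other VEGF receptor, averaged 254, 288 and 416 in iP rats and 258, 358 and 403 in iNP rats, which overlapped almost fully. Its difference was -0.16 ± 0.13 (limma adjusted p = 0.695). The dimmer Vwf probe set averaged 24.1, 35.4 and 47.2 in iP and 32.3, 52.5 and 148 in iNP, a difference of -0.85 ± 0.32 (limma adjusted p = 0.346). The brighter one averaged 88.7, 140.0 and 194 in iP and 87.1, 131 and 228 in iNP, with 0.01 ± 0.24 (limma adjusted p = 0.995). The 2 Vwf probe sets were designed on the same sequence record and did not give the same line difference, and the dimmer one was under the floor of 16 on 11 of 59 arrays.

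**Figure D2:**
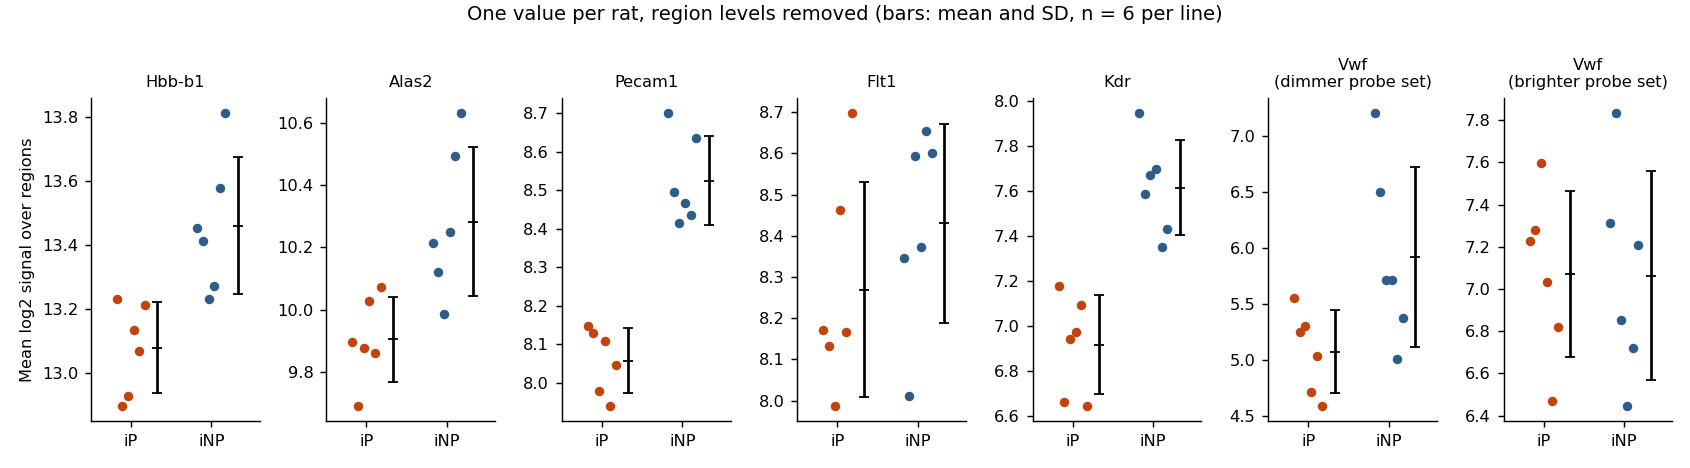
Mean log2 signal of each rat over its regions, after the level of each region was removed, for the 7 probe sets in iP and iNP rats (6 points each) with the group mean and SD. The iP and iNP points separate for Hbb-b1, Pecam1 and Kdr and overlap for Alas2, Flt1 and both Vwf probe sets.

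No member was called between the lines within a single region. The share of probe sets called there was small as well: 0.839% for striatum, 0.725% for amygdala, 0.667% for hippocampus, 0.572% for accumbens and 0.229% for cortex, or 0.538%, 0.458%, 0.423%, 0.378% and 0.137% with no filter. Medians were lower in iP in all 5 regions for Hbb-b1, Alas2, Pecam1, Kdr and the dimmer Vwf probe set, and in 4 for Flt1. The brighter Vwf probe set had the higher median in iP in cortex (246 against 206), striatum (212 against 141) and amygdala (82.7 against 78.2), and the lower one in hippocampus and accumbens.

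For Hbb-b1 the regional differences were -0.53 ± 0.16 for amygdala, -0.44 ± 0.17 for cortex, -0.33 ± 0.15 for striatum, -0.33 ± 0.17 for hippocampus and -0.30 ± 0.12 for accumbens. For Alas2 they were -0.38 ± 0.15, -0.43 ± 0.23, -0.45 ± 0.15, -0.29 ± 0.18 and -0.37 ± 0.15 in the same order. Their adjusted p lay between 0.285, Hbb-b1 in amygdala, and 0.85, both genes in cortex (limma). The differences were negative in all 5 regions for both genes and spanned a narrower range than that of Pecam1.

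Pecam1 differed most in cortex and striatum. In striatum its signals were 163, 226 and 354 in iP and 333, 394 and 447 in iNP, a difference of -0.77 ± 0.19 (limma adjusted p = 0.0979), and 5 of 6 iP rats were below every iNP rat. Leaving out iP rat 5 made this -0.90 with adjusted p = 0.0252, and fitting all arrays together gave 0.0284 with the rat as a random block and 0.0248 without it, out of 0.0248 to 0.238. In cortex the iP rats 1 to 5 had 366, 248, 275, 330 and 106, and the iNP rats ran from 293 through 442 to 554. The lowest of these, rat 5, was the array with the high Gapdh ratio. The cortex difference of -0.79 ± 0.29 (limma adjusted p = 0.849) was -0.49 without that array (0.657). When all arrays were fitted together, that array included, the cortex difference was called, with adjusted p = 0.0359 with the random block and 0.0311 without. No joint fit left that array out. Hippocampus (-0.31 ± 0.19), amygdala (-0.24 ± 0.15) and accumbens (-0.25 ± 0.15) had smaller Pecam1 differences. In these 3 regions the iP signals had medians of 276, 286 and 290 and the iNP signals 345, 337 and 345.

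Kdr differed by -0.91 ± 0.27 in amygdala, -0.75 ± 0.26 in accumbens, -0.74 ± 0.25 in striatum and -0.72 ± 0.21 in hippocampus, and by -0.28 ± 0.26 in cortex. Amygdala signals ran from 80.0 through 155 to 270.0 in iP and from 237 through 284 to 354 in iNP, so that 5 of 6 iP rats were below every iNP rat. Hippocampus gave 74.4, 121 and 164 in iP and 141, 209 and 215 in iNP. The adjusted p in these regions ran from 0.348 in hippocampus to 0.873 in cortex (limma). The 5 iP cortex arrays had 210, 118, 153, 97.4 and 138 for rats 1 to 5, within the iNP range of 110 to 258 in all but 1 rat.

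The dimmer Vwf probe set in accumbens was the only case in which the lines did not overlap within a region: 11.5, 73.6 and 86.4 in iP and 93.9, 117 and 202 in iNP. Its difference there was -1.44 ± 0.47 (limma adjusted p = 0.459). The lowest iP signal, 11.5, lay under the floor. How many of all probe sets separate the lines in accumbens is not given here, so this separation is a description only. The brighter Vwf probe set overlapped in accumbens, with 67.1, 104 and 193 in iP and 82.7, 125 and 341 in iNP. Flt1 differences lay between -0.42 ± 0.21 in amygdala and -0.01 ± 0.24 in hippocampus.

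The test of whether the line difference varied with region called 0 of 5244 probe sets (0%, limma; 242 had an unadjusted p under 0.05) and 0 of 8740 with no filter (0%; 408 unadjusted). Adjusted p for the members were 0.978 for Hbb-b1, 0.996 for Alas2, 0.956 for Pecam1 and Flt1, 0.985 for Kdr, and 0.988 and 0.977 for the dimmer and the brighter Vwf probe set. The larger Pecam1 values in cortex and striatum were therefore not shown to differ from those in the other regions.

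**Figure D3:**
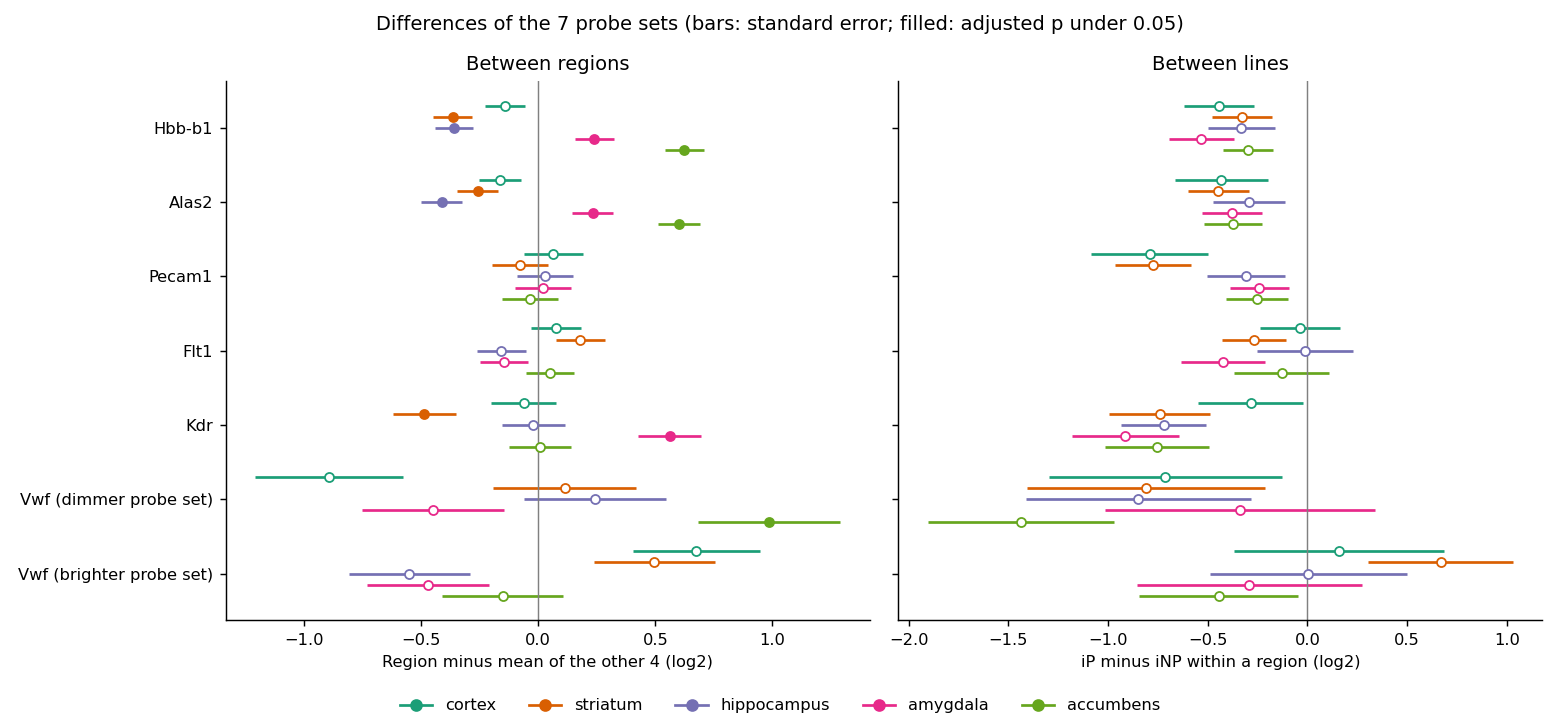
Log2 differences of the 7 probe sets with standard error bars, on the left each region minus the mean of the other 4 and on the right iP minus iNP within each region, coloured by region; filled points have an adjusted p under 0.05. Values of Hbb-b1, Alas2, Pecam1 and Kdr between the lines lie below 0 in every region and none is filled, while the filled points on the left belong to Hbb-b1, Alas2, Kdr and the dimmer Vwf probe set.

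Pecam1 and Flt1 did not share the regional order of the red cell genes, and Kdr shared it only in part. Pecam1 and Flt1 were not called in any region against the other 4, with differences of -0.08 to 0.06 for Pecam1 and -0.16 to 0.18 for Flt1. The ends of the Pecam1 order, cortex over striatum, differed by 0.10 ± 0.75 (higher in 7 of 11 rats), and those of Flt1, striatum over hippocampus, by 0.27 ± 0.55 (8 of 12). No neighbouring regions differed beyond their spread for either gene.

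Flt1 signals overlapped between all regions and lines. Cortex of iP rats 1 to 5 read 305.5, 331, 287, 421 and 309, and striatum ran from 251 through 335 to 442 in iP and 320 through 390.2 to 535 in iNP. Hippocampus ran from 202 through 316 to 373 in iP and 194 through 296 to 511 in iNP, the only region with the lower median in iNP. Accumbens gave 212, 303 and 539 in iP and 236, 350.1 and 503 in iNP.

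Kdr was lower in striatum (-0.49 ± 0.13, limma adjusted p = 0.0117) and higher in amygdala (0.56 ± 0.13, limma adjusted p = 0.00177), in the fit with no filter. In that fit 8.79% of probe sets were called in striatum and 16.8% in amygdala, and both Kdr calls were kept under all 20 alternatives. Its striatum signals were 73.7, 74.7 and 154 in iP and 99.03, 157 and 214 in iNP. Amygdala was above striatum in 11 of 12 rats (0.84 ± 0.66, 1.79-fold), and hippocampus above striatum in 10 of 12 (0.37 ± 0.34). By mean level Kdr ranked amygdala first, then accumbens, cortex, hippocampus and striatum. That is the Hbb-b1 order with accumbens and amygdala exchanged, but accumbens, cortex and hippocampus were nearly equal (log2 means 7.27, 7.26 and 7.25). Unlike Hbb-b1, Kdr was not called in accumbens (0.01, limma adjusted p = 0.986) or in hippocampus (-0.02, 0.955) against the other 4 regions. Only the step from hippocampus to striatum exceeded its spread over rats.

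The dimmer Vwf probe set was higher in accumbens (0.99 ± 0.30, limma adjusted p = 0.019), where 13.9% of probe sets were called with no filter. That call was lost without iP rat 6 (0.0588), iNP rat 11 (0.0655) or iNP rat 12 (0.0515), and adjusted p ranged from 0.00293 to 0.0655. The 2 Vwf probe sets had opposite signs in cortex, where 10.6% were called with no filter: -0.89 ± 0.32 for the dimmer (limma adjusted p = 0.0603) and 0.68 ± 0.27 for the brighter (0.111). Cortex of iP rats 1 to 5 read 18.4, 53.4, 18.1, 19.3 and 9.96 on the dimmer and 224, 427, 246, 273.5 and 64.1 on the brighter. The brighter probe set was not called in hippocampus either (-0.55 ± 0.26, limma adjusted p = 0.167), where 15.8% were called with no filter. Without the 5 arrays nearest another region it was called in cortex (0.90, adjusted p = 0.0176) and amygdala (-0.82, 0.0284), and it was called in hippocampus without iNP rat 11 (-0.79, 0.027).

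Over arrays, the red cell pair varied together and the endothelial members showed only weak relations. After the mean of each region and line was taken off, Hbb-b1 and Alas2 had r = 0.72 (Spearman's rho 0.65) over 59 arrays and r = 0.72 (rho 0.64) over 57 without the 2 arrays farthest apart. Within regions r was 0.83 for amygdala, 0.75 for cortex, 0.72 for striatum, 0.67 for hippocampus and 0.63 for accumbens. These points share rats, since each rat gave up to 5 arrays, so no p is given.

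The 9 pairs of endothelial probe sets from different genes had r from -0.27 to 0.24, and the 10 pairs of a red cell with an endothelial probe set had r from -0.25 to 0.12. Pecam1 with Kdr was 0.14 and Flt1 with Kdr -0.21, and Hbb-b1 with Pecam1 was -0.12, or 0.00 over 57 arrays. The 2 Vwf probe sets had 0.35 with each other, lower than the red cell pair although both read the same gene. None of the 10 pairs between the cell types kept 1 sign in all 5 regions, while 3 of the 9 endothelial pairs did. Pecam1 was positive with Kdr and with the dimmer Vwf probe set, and Kdr was negative with the brighter one.

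Over whole rats the same pair had r = 0.75 in iP (exact permutation p = 0.0764, two-sided, n = 6; rho 0.77, exact p = 0.103) and r = 0.90 in iNP (exact permutation p = 0.0153, n = 6; rho 0.83, exact p = 0.0583). Adjusted over the 30 relations computed these were 0.764 and 0.458, and 0.769 for both rho values, so neither passed; the smallest p that 6 rats allow is 0.00278. Without the 2 rats farthest from the median of Hbb-b1, r was 0.39 in iP and 0.63 in iNP.

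**Figure D4:**
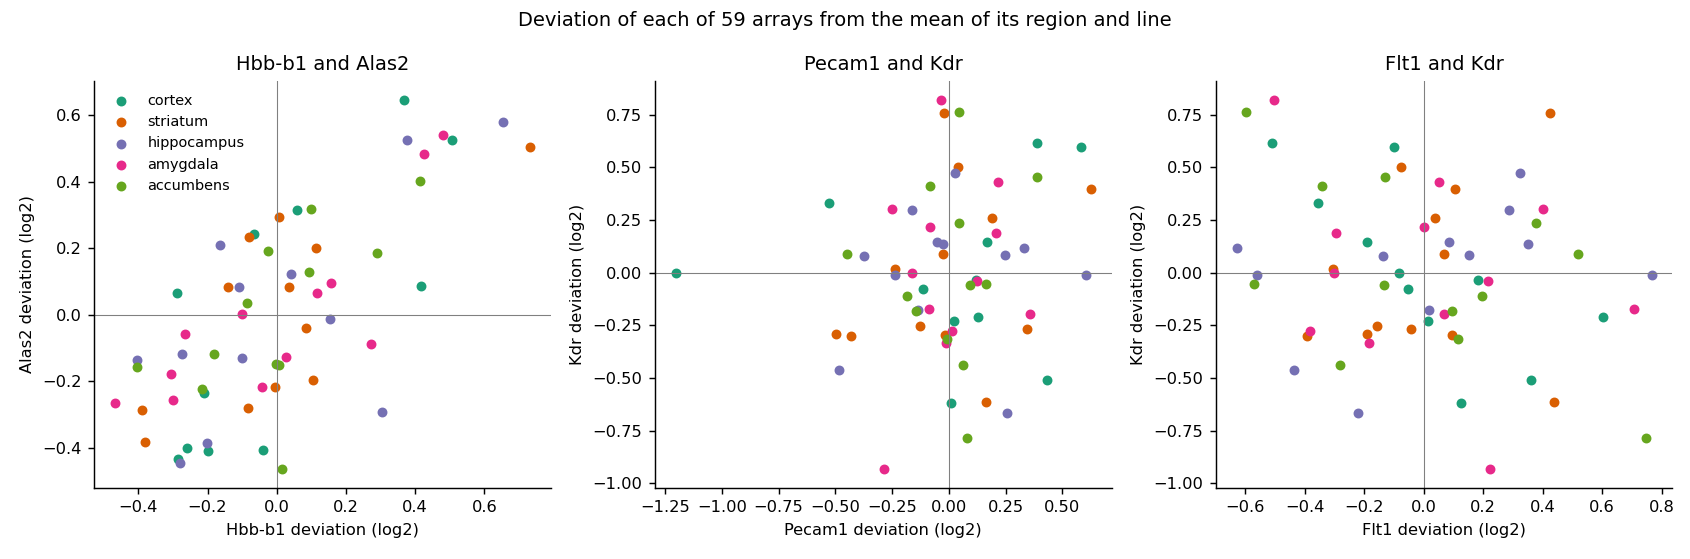
Deviation of each of 59 arrays from the log2 mean of its region and line, coloured by region, for Alas2 against Hbb-b1, Kdr against Pecam1 and Kdr against Flt1. The red cell pair lies along a rising band (r = 0.72), and the endothelial pairs scatter widely (r = 0.14 and -0.21).

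**Figure D5:**
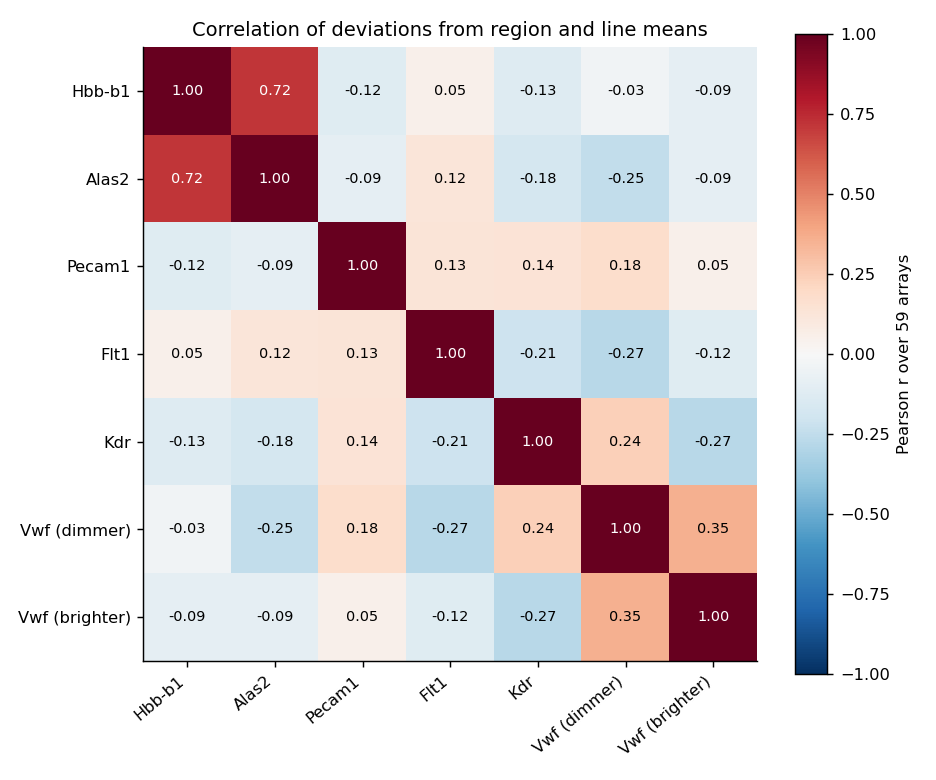
Pearson r between the residuals of every pair of the 7 probe sets over arrays. Hbb-b1 with Alas2 (0.72) and the 2 Vwf probe sets (0.35) are the highest of the 21 pairs.

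Single rats stood out across regions. Rat 12 of the iNP line had the highest Hbb-b1 of all rats in 3 regions (18903 in accumbens, 18906 in amygdala and 14982 in striatum) and the highest Alas2 in 3 (1793 in cortex, 2061 in amygdala and 1567 in striatum). Rat 7 of that line had the highest Kdr in 4 regions and the highest value of the dimmer Vwf probe set in 4. Rat 11 had the highest Flt1 in 3 regions. Rats 7 and 12 each had the highest Pecam1 in 2 regions, so rat 12 was high for a red cell and for an endothelial gene. That was not particular to rat 12. Rat 7 also had the highest Alas2 in 1 region, and rat 11 the highest Hbb-b1 in 1. Rat 10 had the highest Hbb-b1, Alas2 and Pecam1 in 1 region each.

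The genes most like Hbb-b1 in their residuals over 57 arrays were led by other blood genes. Of 4371 probe sets compared, the closest were Hbb, another beta-globin (r = 0.93), Hba-a3, an alpha-globin (0.77), and Alas2 (0.72), followed by the monooxygenase Fmo1 (0.56) and Cspg4 (0.48). The Hbb probe set is of the same family-matching type and may read some of the same transcripts. Alas2 was closest to Hbb-b1 (0.72) and Hbb (0.70), and then to Pdyn, which encodes an opioid peptide precursor (0.57), Lgals3bp (0.55) and RT1-CE16, a histocompatibility gene (0.54).

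The endothelial members had weaker company. Pecam1 was closest to Acvrl1 (0.55), an endothelial receptor of the transforming growth factor family, then to LOC102549726, Slc30a1, Sorbs2 and Arrdc1 (0.50 to 0.51). Flt1 was closest to Pea15 and Dad1 (0.58 each), Fbxo2 (0.56), Lenep (0.55) and Rnf157 (0.54). Kdr was closest to Psat1 (0.54), an enzyme of serine synthesis, Cyp3a23-3a1 (0.53), Kcnma1 (0.50), Acot7 (0.49) and Ica1 (0.47), and the brighter Vwf probe set to Plec (0.65), Gclm (0.63), Prkag1 (0.60), Grin3a (0.58) and Prrc2c (0.57). These lists drew only on probe sets past the filter, so Kdr and Vwf could not appear in them. Pecam1, Flt1 and the red cell genes could, and were not among the 5 genes closest to another endothelial member.

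Other genes of the same cells and pathways gave few line differences, beside 139 of 5244 probe sets called in either direction. Few calls are therefore not particular to these lists. Of 10 red blood cell genes tested (36 listed, 15 on the array), Hbb-b1 alone was lower in iP and 9 were not called, with a median difference of -0.14 beside -0.01 over all probe sets. The alpha-globin Hba-a3 was at -0.36 (limma adjusted p = 0.057). Of 10 genes of heme synthesis and breakdown 0 were called, with a median of 0.01, and the heme list shares Alas2 with the red cell list. Of 8 leukocyte and platelet genes, Lyz2, the lysozyme of macrophages and neutrophils, was higher in iP (0.54, limma adjusted p = 5.76e-05).

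Of 18 endothelial genes tested (43 listed, 25 on the array), Pecam1 alone was called, and the median was -0.07. The summed signal of this list lay between 13540 and 18833 in all groups together, and no gene of it was at 0 on any array. Of 6 VEGF and angiopoietin genes 0 were called, with a median of -0.18 and Nrp1, a co-receptor of VEGF, at -0.32 (limma adjusted p = 0.127). Of 9 mural cell genes, those of pericytes and vessel muscle, 0 were called by their brightest probe set, with a median of -0.09, although a dimmer probe set of Tagln was lower (-0.81, limma adjusted p = 0.00021). Of 8 coagulation genes F3, tissue factor, was lower (-0.36, limma adjusted p = 0.0406).

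Among cells that could be mixed in, 0 of 7 choroid plexus genes were called between the lines. Fn1, fibronectin, alone of 16 meningeal and fibroblast genes was lower in iP (-0.55, limma adjusted p = 8.68e-05; its other probe set -0.57, 0.014), and P2ry12 alone of 7 microglial genes was lower (-0.77, limma adjusted p = 0.000899). Of 9 astrocyte, 7 oligodendrocyte and 9 neuron genes 0 were called.

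The red blood cell list, which holds Hbb-b1 and Alas2, had called genes in 4 of the 5 regions. Of all probe sets, 20.9% were called in accumbens, 23.3% in hippocampus, 13.9% in striatum, 17% in cortex and 26.1% in amygdala, in either direction. In accumbens 5 of 10 genes were higher (Hba-a3 0.75, Hbb 0.65, Hbb-b1, Alas2, and Epb41, a protein of the red cell membrane skeleton, 0.28) and 0 lower, with a median of 0.23. In hippocampus 5 were lower, with a median of -0.31. In striatum 4 were lower and Epb41 was higher (0.30), and in cortex 0 were called. In amygdala only Hbb-b1 and Alas2 of the 10 were higher, and 2 were lower: Epb41 (-0.39) and the transferrin receptor gene Tfrc (-0.26), the latter named after its values were seen. Epb41 is also made by neurons. The summed signal of the list ran from 37034 to 73109 in accumbens and from 23556 to 44725 in hippocampus.

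Genes of the vessel lists were called in both directions. Of the 18 endothelial genes, 3 were higher in accumbens (Cav1, of the caveolae, 0.72) and 1 lower (the junction protein Tjp1, -0.28), 2 were higher in striatum (Ace, 0.71), and 1 was lower in amygdala (Cav1, -0.57) and in cortex (Ace, -0.58). Over all probe sets 20.9% were called in accumbens in either direction. In hippocampus 1 was higher and 2 were lower (Icam1, -0.38). Of the 9 mural cell genes, 4 were higher in accumbens, among them the smooth muscle genes Acta2 (1.15) and Tagln (0.93), 4 were lower in hippocampus (Vtn, -0.77), and 3 in striatum (Tagln, -0.62). Nrp1 was higher in hippocampus (1.41) and lower in amygdala (-0.58) and accumbens (-0.45), and it is also made by neurons.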

How the data were processed

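Brain RNA was measured on rat oligonucleotide arrays, 59 in all. The deposited values are intensities per probe set that the authors had scaled, per the value table, where trimmed means of all arrays (2% cut at each end) lie between 998 and 999 (program not given in the sources used here). No read depth applies, and the number of arrays limits the precision.

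For this work 59 control probe sets were left out, values under 16 were set to 16, and log2 was taken. The dimmest 40% of probe sets by mean were left out, which kept 5244 of 8740, and limma 3.58.1 in R 4.3.3 was run with an intensity trend, two-sided, with Benjamini-Hochberg adjustment over all probe sets tested and a call at adjusted p under 0.05. Lines were compared over 6 and 6 rat means or within a region, and regions with the rat as a fixed block, since regions came from the same rats. Fits were tested on simulated data with planted differences larger than any reported for the members, so that test does not bear on small differences. Correlations used Python 3.11.15, numpy 2.4.6, pandas 2.3.3 and scipy 1.17.1. Symbols are those of the array annotation, which gave 308 probe sets several symbols and 1426 none. A probe set with Hbb-b1 among several symbols was left out (r = 0.62 with the one used).

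Every member was named. From other lists the text names probe sets called over all regions, or the lowest p, and the largest called difference per region; likeness gives the 5 closest genes. The members and lists were chosen with earlier results of these data known. Alternatives changed the filter, floor, scaling, trend, weights, block and arrays.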

Additional observations from a re-analysis of the deposited data

Results flagged for a closer look

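A search for 1 value far from the rest of its group covered 84 groups, the arrays of each region and line and the rat means of each line for every probe set, and found 5, all of them single arrays, where chance gives about 1 in 20 groups. In Kdr, hippocampus of iNP rat 11 read 141 while the other iNP rats read 193 to 215. On the dimmer Vwf probe set, cortex of iP rat 2 read 53.4 while the others were between the floor of 16 and 19.3, and striatum of iNP rat 11 was at the floor of 16 while the others read 56.9 to 113. On the brighter Vwf probe set, hippocampus of iP rat 3 read 227 against 72.1 to 108 in the others, and amygdala of iP rat 2 read 255 against 57.7 to 94.8. All 5 lay on probe sets below the filter on dim signals.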

How the results depend on the processing

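Of 77 member results 14 were called, and over 302 alternatives of these 265 kept the call and 37 lost it, while 19 of 1339 alternatives of the uncalled results passed the threshold. No called result changed sign, and 59 alternatives of uncalled results did. The calls lost were those of Hbb-b1 between the lines and in amygdala, of Alas2 in striatum and amygdala, and of the dimmer Vwf probe set in accumbens. Putting all arrays in 1 fit raised the counts of probe sets called between the lines within cortex, amygdala and accumbens. The replicate block in that fit changed them little. Cortex had 12 in its own fit, 56 in the joint fit with the rat as a random block and 57 with no block. Amygdala had 38, 59 and 58, and accumbens 30, 51 and 55. The counts in striatum (44) and hippocampus (35) were rated the same under all 22 alternatives. Cortex gave 24 without the 2 arrays farthest apart or the 5 nearest another region and 37 with array weights, and 9 to 24 when 1 rat was left out. Leaving out 1 rat gave 22 to 51 in amygdala and 19 to 37 in accumbens, and accumbens gave 19 with the dimmest 60% left out. The comparison of cortex against the mean of the other 4 regions had 894 probe sets called and 1383 with array weights. The correlation of Hbb-b1 with Alas2 was 0.80 when line was not removed. The fit without the 5 arrays nearest another region and the fits of Kdr and Vwf with no filter were chosen after seeing the data. Kdr and Vwf signals are dim, which limits their precision.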

Other observations

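Genes of iron and clotting gave values beside those of the members. Regional calls were common on the whole array: the share called in either direction lay between 13.9% (striatum) and 26.1% (amygdala). Whether the lists below exceeded the general share was not tested, so their counts are a description only. Among 10 genes of heme synthesis and breakdown, Hmox2, a heme oxygenase, was higher in cortex (log2 difference 0.28 against the mean of the other 4 regions), and Ppox, a late enzyme of heme synthesis, was higher in amygdala (0.24). Of this list 2 genes were higher in cortex, 2 lower in striatum, 1 higher and 1 lower in hippocampus, 3 higher and 1 lower in amygdala, and 2 higher and 1 lower in accumbens. Among 8 coagulation genes, Tfpi, the inhibitor of the tissue factor pathway, was higher in cortex (0.31) and lower in striatum (-0.41), Plat, tissue plasminogen activator, was higher in accumbens (0.46), and Pros1, protein S, was higher in amygdala (0.35). Vegfa, the ligand of Flt1 and Kdr, was lower in amygdala (-0.45), where Kdr was higher.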
